A study of Mus musculus with 9 samples.

Results

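The genes that encode the subunits of the AMPA receptors (Gria1, Gria2, Gria3 and Gria4, for the proteins GluA1 to GluA4) and of the kainate receptors (Grik1, Grik2, Grik3, Grik4 and Grik5, for GluK1 to GluK5) were examined in the hippocampus of mice that differ in the dose of IF1, the inhibitor protein of the mitochondrial ATP synthase. Members were all non-control probes of the array that carry 1 of these 9 gene names among 31093 names on the array, which gave 14 probes of 39429. The hippocampus of 9-month-old C57BL/6J males was profiled in 3 IF1-KO, 3 CRL and 3 IF1-TG mice, with 1 one-colour array for each mouse. In IF1-KO mice, exon 3 of floxed Atp5if1 (Atpif1 on the array) is deleted by Cre recombinase driven from the Camk2a promoter, that is, for the most part in excitatory neurons of the forebrain, so the other cells of the tissue keep the gene. IF1-TG mice carry human IF1 behind a tetracycline-responsive element together with a transactivator under the Camk2a promoter, and their endogenous gene is intact. CRL mice are the controls, and the labels give no further genotype for them.

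AMPA and kainate receptors are tetrameric cation channels opened by glutamate. AMPA receptors carry most of the fast excitatory current at hippocampal synapses, and GluA2, whose transcript is edited, sets their calcium permeability. Among kainate receptor subunits, GluK1, GluK2 and GluK3 can form channels by themselves, whereas GluK4 and GluK5 need one of these as a partner, and GluK4 is known for its place at mossy fibre synapses of CA3. The study reports on synaptic transmission and on GluA1 phosphorylation, and the arrays address whether the subunit transcripts differed between the genotypes.

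The probes are 60-base oligonucleotides, and several genes have a pair of them at distant places of the transcript, which is why some are printed. Positions are on mouse build mm9, as in the array files. Exon and UTR annotation of that build was not used here. The following probes of Gria3, Gria4 and Grik2 start at bases 2506, 1566 and 1258 of their transcripts, nearer the 5′ end than their partners at 4515, 5384 and 4815. They are the dimmer or, for Grik2, the brighter probe of the pair.
Gria3 A_52_P179309, chrX:39007367-39007426, plus strand: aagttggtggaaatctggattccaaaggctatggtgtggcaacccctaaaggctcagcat
Gria4 A_52_P349182, chr9:4502385-4502444, minus strand: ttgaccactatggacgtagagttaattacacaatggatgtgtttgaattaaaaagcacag
Grik2 A_55_P2039992, chr10:49243534-49243593, minus strand: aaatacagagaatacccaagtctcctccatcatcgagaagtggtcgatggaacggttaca

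The first 30 bases are shown for the probes on which the results below turn: Grik4, which came nearest to the thresholds; Grik3, which varied most between mice; the brighter Gria4 probe, whose identity is uncertain; and both Gria2 probes, which the files assign to different transcripts (transcript variant 3, NM_001039195, and NM_001083806).
Grik4 A_51_P384994, chr9:42328570-42328629, minus strand: gccgagagagcagtccaagaattgatggtg
Grik3 A_66_P120555, chr4:125391317-125391376, plus strand: attattttcctttttaagacactgtgatat
Gria4 A_55_P1987725, chr9:4417896-4417955, minus strand: cagcacccagcacagtgcctggcatattgt
Gria2 A_65_P00930, chr3:80495725-80495784, minus strand: tttaatttgggggatattccttggggaaaa
Gria2 A_55_P2031327, chr3:80488858-80488917, minus strand: tttcatactttacctaatggcaatctggag
Of the 14 probes, 12 share no run of 16 bases with an array probe of another gene name. The brighter Gria4 probe shares 1 such run with a Slit1 probe, and the brighter Gria3 probe shares 1 with a probe of AI662270. The sequence of the brighter Gria4 probe resembles a dispersed repeat of the MIR kind, and it was not searched for in the genome, so it is uncertain as a measure of Gria4 alone. Runs of 16 of its bases occurred in 1 of 32851 RefSeq promoter windows (GRCm38.p6), beside 0 to 2 windows for the other 13 probes.

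Levels are given on a log2 scale on which 0 is the 75th percentile of the probe signals of that array, and they are compared between genotypes only within a probe. A probe was kept where 1 genotype or more had it well above background in all 3 mice, which 13 of the 14 probes and 27994 of all probes met. Each of these 13 was well above background on all 9 arrays. The exception was the second Grik3 probe, A_55_P2158251, which was well above background only on CRL replicates 1 and 3, and no difference is given for it. Following the study's methods, a probe was called where the fold change was at least 1.5 (0.58 on the log2 scale) and the unadjusted limma P was below 0.05, and Benjamini-Hochberg adjusted P over all kept probes is given beside it. Because whole hippocampus was used, fewer cells of a type and less RNA per cell cannot be told apart.

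The signal at the 75th percentile ranged from 1552 to 2690 intensity units between arrays, arrays of the same genotype correlated at r = 0.983 to 0.992, and no spot was saturated. The 9 arrays were spread over 3 slides. IF1-TG replicates 1 and 2 shared slide 1, CRL replicates 1 and 2 were hybridised on slide 2 beside the first IF1-KO and the third IF1-TG mouse, and the remaining IF1-KO and CRL mice were on slide 3. The probe for mouse Atpif1 was not placed relative to the deleted exon, and its match to the human transgene was not checked. It read 6.43, 5.20 and 5.53 in IF1-KO replicates 1 to 3, 6.19 to 6.34 in CRL and 6.38 to 6.51 in IF1-TG. The array labelled IF1-KO replicate 1 was thus not lower than the controls, and no subunit probe was called with or without it. Of the 26 subunit differences that involve IF1-KO, 2 changed sign without this array (Gria1 and the dimmer Gria3 probe, IF1-KO versus CRL), and the largest shift was 0.16, for the brighter Gria4 probe.

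None of the 13 receptor subunit probes was called in any of the 3 comparisons. Over all kept probes, the share called was 3.77% between IF1-TG and IF1-KO, 4.47% between IF1-TG and CRL, and 1.06% between IF1-KO and CRL. At an unadjusted P below 0.05 alone, none of the 13 passed, beside 7.12%, 8.53% and 2.56% of all kept probes, and after Benjamini-Hochberg adjustment 3, 1 and 0 of all kept probes passed. In none of the 39 pairs of groups did the arrays of the genotypes separate without overlap, whereas 13.6%, 12.2% and 8.00% of the kept probes with a value on every array compared did so in the same order of comparisons. A moderated F test for any difference between the 3 genotypes, which 5.96% of kept probes passed at an unadjusted P below 0.05, ranked Grik4 first among the 13 probes (adjusted P = 0.841).

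The differences of the subunit probes were small and their intervals limit how large they could be. They ran from -0.28 to 0.24 in IF1-TG versus IF1-KO, from -0.22 to 0.38 against CRL in IF1-TG, and from -0.12 to 0.34 against CRL in IF1-KO. In 28 of the 39 comparisons the whole 95% interval lay within a 1.5-fold change in either direction: 10 of 13 probes (76.9%), 8 (61.5%) and 10 (76.9%), beside 45.8%, 45.0% and 50.3% of all kept probes. The 11 intervals that reached past 1.5-fold came from Gria3 A_52_P179309, Grik1, Grik2 A_55_P2039992, Grik3 and Grik4. These intervals take no account of the slide, and 2 of the 3 IF1-TG mice were alone on slide 1. Once slide was a fixed term, 10 of the 13 intervals of IF1-KO versus CRL lay within 1.5-fold. IF1-TG differences with that term rest on IF1-TG replicate 3 alone, because slide 1 held no other genotype. Apart from the brighter Gria2 probe and Grik5 versus CRL, the limits given below for IF1-TG hold only without that term. Intervals assume a normal spread of log2 values, and 3 mice in each group limit their precision.

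**Figure D1:**
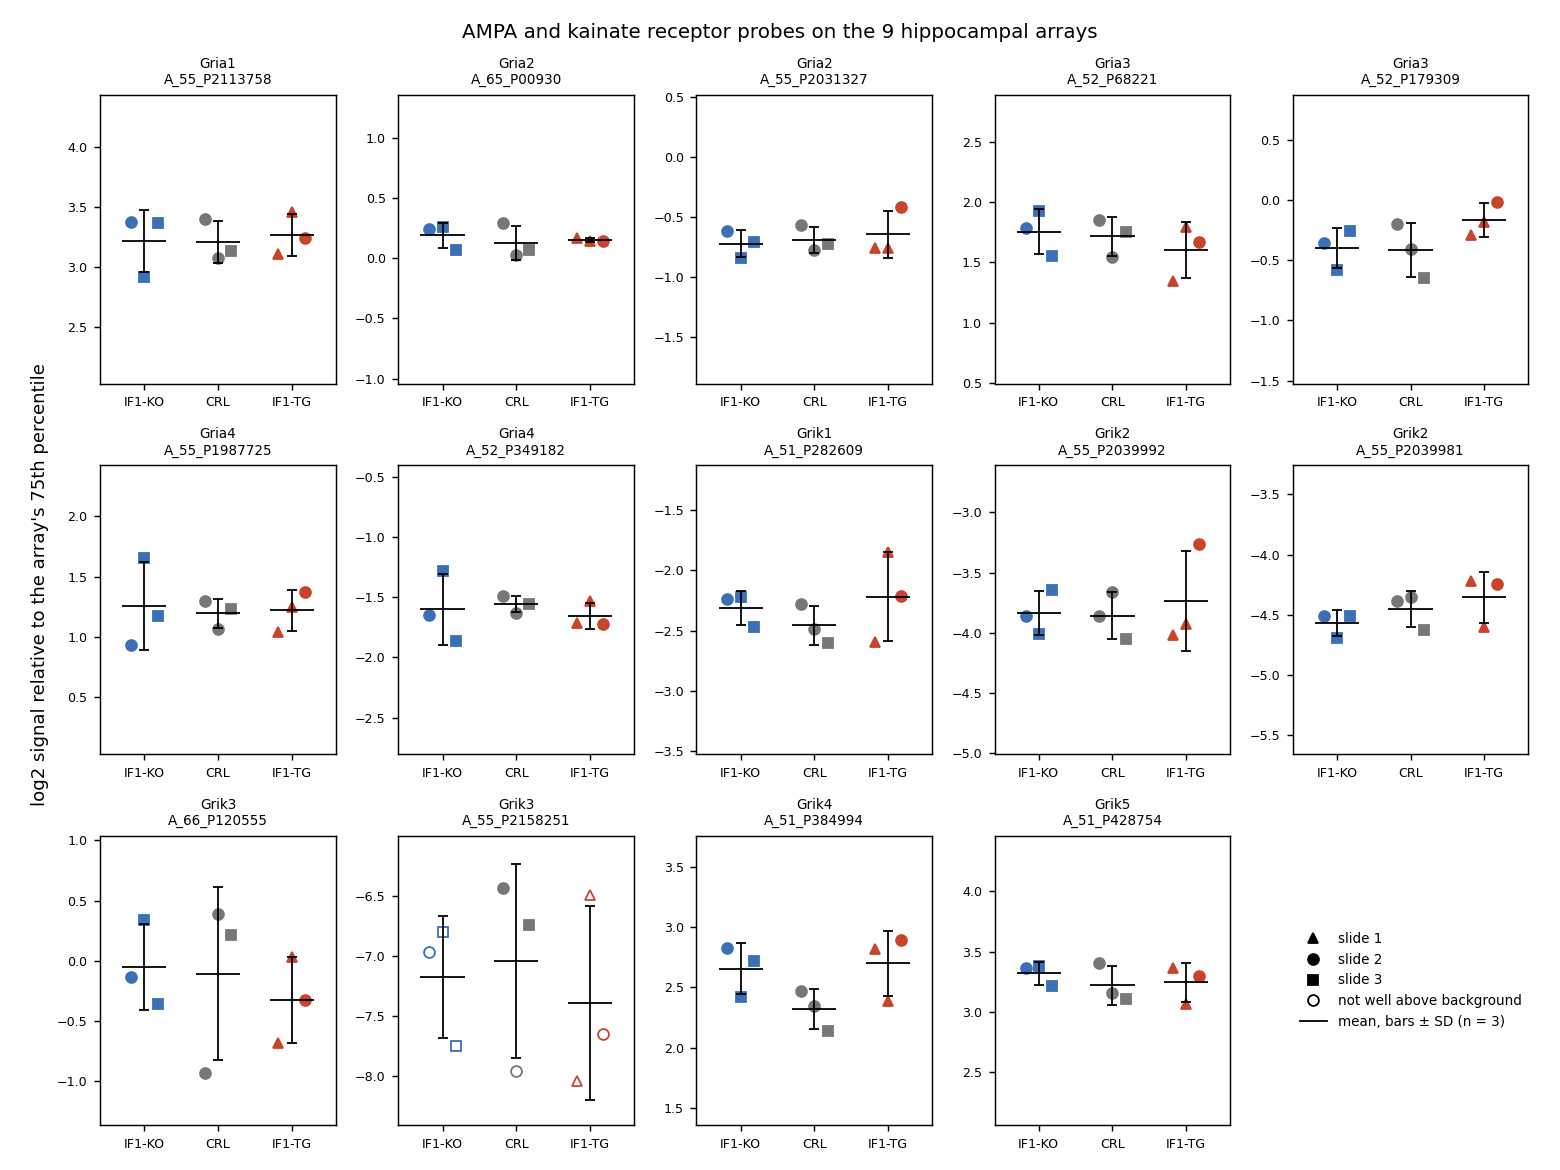
Log2 signal of the 14 AMPA and kainate receptor probes (y axis, 0 being the array's 75th percentile, same span in each panel) by genotype (x axis), with 1 point for each of the 9 mice, the shape giving the slide, open points not well above background, and lines and bars giving mean ± SD of 3 mice. The arrays of the genotypes overlap in every panel, Grik4 has its lowest mean in CRL (2.32), and both Grik3 probes spread most.

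Among AMPA receptor subunits, Gria1, which encodes GluA1, the subunit whose phosphorylation regulates channel conductance, was measured by 1 probe at chr11:57143613-57143672. Its levels were 3.37, 2.92 and 3.36 in IF1-KO, 3.40, 3.08 and 3.14 in CRL and 3.11, 3.45 and 3.24 in IF1-TG. Each genotype held values on both sides of 3.2, and the groups overlapped throughout. The means were 3.22 ± 0.26, 3.21 ± 0.17 and 3.27 ± 0.17 in the same order (SD, 3 mice each). The difference between IF1-TG and CRL was 0.061 (95% interval -0.32 to 0.45), that between IF1-TG and IF1-KO 0.048 (-0.34 to 0.43) and that between IF1-KO and CRL 0.013 (-0.37 to 0.40; -0.064 without the IF1-KO replicate 1 array). A change of Gria1 transcript by 1.5-fold in either direction lay outside these 3 intervals. With slide as a block the differences of IF1-TG changed sign, to -0.023 from CRL (-0.64 to 0.60) and -0.091 from IF1-KO (-0.77 to 0.58), and 1.5-fold lay inside them in at least 1 direction.

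Gria2 encodes GluA2, the subunit that makes AMPA receptors nearly impermeable to calcium, and its brighter probe had the narrowest interval of the 13. That probe, of transcript variant 3 (A_65_P00930), read 0.24, 0.26 and 0.070 in IF1-KO, 0.29, 0.028 and 0.069 in CRL and 0.17, 0.14 and 0.14 in IF1-TG. The IF1-TG mice lay within the range of the CRL mice. The differences were 0.022 for IF1-TG versus CRL (-0.24 to 0.28), -0.040 for IF1-TG versus IF1-KO (-0.30 to 0.22) and 0.062 for IF1-KO versus CRL (-0.20 to 0.32). The probe of the other transcript, A_55_P2031327, ranged from -0.84 to -0.42 over the 9 arrays, with IF1-TG replicate 3 highest. Its differences were 0.046, 0.079 and -0.034 in the same order, each with an interval within 1.5-fold, and with slide as a block they were 0.24 (-0.15 to 0.63), 0.24 (-0.18 to 0.66) and near 0.

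The probes of Gria3, the X-linked gene of GluA3, differed in sign in both comparisons of IF1-TG. The brighter one, A_52_P68221, read 1.79, 1.93 and 1.55 in IF1-KO, 1.86, 1.54 and 1.75 in CRL and 1.35, 1.79 and 1.67 in IF1-TG, with means in the order IF1-KO, CRL, IF1-TG. The probe printed above, A_52_P179309, read -0.36, -0.58 and -0.26 in IF1-KO, -0.20, -0.41 and -0.64 in CRL and -0.29, -0.18 and -0.014 in IF1-TG. On it the IF1-TG mean was highest, although IF1-TG replicate 1 lay below 1 IF1-KO and 1 CRL mouse. For IF1-TG versus CRL the brighter probe gave -0.11 (-0.49 to 0.26) and the other 0.25 (-0.099 to 0.61, adjusted P = 0.677). For IF1-TG versus IF1-KO they gave -0.15 (-0.53 to 0.22) and 0.24 (-0.12 to 0.59). For IF1-KO versus CRL both were near 0, at 0.040 and 0.017. Over the 9 arrays the pair correlated at r = -0.21, a description with no test, so these probes do not give Gria3 a common direction in IF1-TG.

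Gria4 encodes GluA4, which is prominent in fast-spiking interneurons. Its brighter probe, A_55_P1987725, ranged from 0.94 in IF1-KO replicate 1 to 1.66 in IF1-KO replicate 2, so that both the lowest and the highest mouse belonged to IF1-KO. The CRL mice lay between 1.06 and 1.29 and the IF1-TG mice between 1.04 and 1.37. Differences were 0.024 for IF1-TG versus CRL, -0.035 for IF1-TG versus IF1-KO and 0.059 for IF1-KO versus CRL, with standard errors of 0.19. Single IF1-KO arrays moved these values: without IF1-KO replicate 1 they were -0.19 for IF1-TG versus IF1-KO and 0.22 for IF1-KO versus CRL, and without IF1-KO replicate 2 they were 0.17 and -0.14. With slide as a block the probe gave 0.27 for IF1-TG versus CRL (-0.36 to 0.90) and 0.30 for IF1-TG versus IF1-KO (-0.39 to 0.98). The second probe, printed above, gave -0.096, -0.055 and -0.041, and all 6 intervals of this pair lay within 1.5-fold without the slide term, but not those of IF1-TG with it. The pair of probes correlated at r = 0.65 over the arrays.

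Among kainate receptor subunits that form channels by themselves, Grik1 (GluK1), at chr16:87896231-87896290, read -2.24, -2.22 and -2.47 in IF1-KO, -2.28, -2.48 and -2.60 in CRL and -2.59, -1.85 and -2.21 in IF1-TG. IF1-TG held both the highest mouse and 1 of the lowest. The difference of IF1-TG from CRL was 0.24 (-0.21 to 0.68, adjusted P = 0.754), that from IF1-KO 0.092 (-0.35 to 0.53), and that of IF1-KO from CRL 0.14 (-0.30 to 0.59). The first was 0.42 without IF1-TG replicate 1, where the unadjusted P but not the fold change passed its threshold, and 0.051 without IF1-TG replicate 2. Grik2 encodes GluK2, a main subunit of hippocampal kainate receptors. Its brighter probe, printed above, read -3.86, -4.01 and -3.65 in IF1-KO, -3.86, -3.66 and -4.05 in CRL and -4.02, -3.92 and -3.26 in IF1-TG. The IF1-TG array on slide 2 was the highest of all 9, and those on slide 1 lay within the control range.

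The Grik2 estimate differed when slides were taken into account. IF1-TG versus CRL was 0.12 (-0.37 to 0.62, adjusted P = 0.902) over all arrays. It was 0.50 within slide 2 and 0.55 with slide as a block, and in both IF1-TG rests on the same mouse, IF1-TG replicate 3. With single arrays left out it ranged from -0.11 to 0.27. With IF1-KO as the reference the values were 0.10, 0.60 within slide 2 and 0.49 with the block, and -0.13 to 0.25 with single arrays left out. The second Grik2 probe, A_55_P2039981, ranged from -4.69 to -4.22 and gave 0.099 for IF1-TG versus CRL, 0.22 for IF1-TG versus IF1-KO (-0.11 to 0.55, adjusted P = 0.744) and -0.12 for IF1-KO versus CRL. With slide as a block the IF1-TG versus CRL value was 0.15, and without IF1-TG replicate 2 that for IF1-TG versus IF1-KO was 0.34. For the latter the unadjusted P but not the fold change passed its threshold.

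Grik3, the gene of the low-affinity subunit GluK3, had the widest spread of the family. The kept probe read -0.13, 0.34 and -0.36 in IF1-KO, -0.93, 0.39 and 0.22 in CRL and -0.68, 0.030 and -0.33 in IF1-TG. The lowest and the highest of the 9 mice were both CRL. Its residual SD of 0.51 was higher than that of 89.0% of kept probes, whose median was 0.24. The differences were -0.22 for IF1-TG versus CRL (-1.04 to 0.60), -0.28 for IF1-TG versus IF1-KO (-1.10 to 0.54) and 0.060 for IF1-KO versus CRL (-0.76 to 0.88), so that these arrays could not show or exclude a 1.5-fold change. Single control arrays decided the first and the last of these. Without CRL replicate 1 the difference of IF1-TG from CRL was -0.63, which passed both thresholds, unadjusted, and is the only call of a subunit probe in any setting run, whereas without CRL replicate 2 it was 0.030. For IF1-KO versus CRL the same omissions gave -0.35 and 0.31. The second Grik3 probe ranged from -8.04 to -6.43 and was mostly not above background.

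Grik4, which encodes the high-affinity partner subunit GluK4, lay nearest to the thresholds. Its levels were 2.83, 2.42 and 2.72 in IF1-KO, 2.47, 2.35 and 2.14 in CRL and 2.82, 2.39 and 2.89 in IF1-TG. In each of the altered genotypes a pair of mice lay above all 3 controls and the third mouse lay within the control range. The means were 2.66 ± 0.21, 2.32 ± 0.17 and 2.70 ± 0.27 in IF1-KO, CRL and IF1-TG (SD, 3 mice each). The difference was 0.38 for IF1-TG versus CRL (1.30-fold, 95% interval 0.983 to 1.72-fold, adjusted P = 0.603) and 0.34 for IF1-KO versus CRL (1.26-fold, 0.954 to 1.67-fold, adjusted P = 1.00), and 0.043 for IF1-TG versus IF1-KO (-0.36 to 0.45). Both comparisons with CRL use the same 3 control arrays. An exact two-sided permutation test of 3 against 3 mice, which cannot go below 0.1, gave p = 0.2 in both comparisons with CRL. Neither difference passed a threshold, and the intervals include both no change and a change over 1.5-fold.

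Within slides, Grik4 differences from CRL were of the same sign. IF1-TG minus CRL was 0.48 on slide 2, and IF1-KO minus CRL was 0.42 on slide 2 and 0.43 on slide 3, each resting on 1 or 2 mice a group. With slide as a block, IF1-TG versus CRL was 0.49, again from IF1-TG replicate 3 alone, and IF1-KO versus CRL was 0.42. For the latter the unadjusted P but not the fold change passed its threshold. Leaving out the array labelled IF1-KO replicate 1 gave 0.25 for IF1-KO versus CRL and 0.13 for IF1-TG versus IF1-KO. The unadjusted P, but not the fold change, also passed without IF1-TG replicate 2 (0.54 for IF1-TG versus CRL) and without IF1-KO replicate 2 (0.46 for IF1-KO versus CRL), and with all 9 arrays under normexp with quantile normalization (0.40 for IF1-KO versus CRL) and under the trended, robust variance model (0.38 for IF1-TG versus CRL). Over the 21 alternative settings the difference stayed positive in both comparisons with CRL, from 0.23 to 0.54 for IF1-TG and from 0.25 to 0.46 for IF1-KO, always under 1.5-fold. The genes whose signal over the 9 arrays was most like Grik4 were Lrch3 (r = 0.97), Ehmt1 (r = 0.93) and Uhrf1 (r = 0.93), a ranking over 27706 probes given as a description.

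Grik5, which encodes the partner subunit GluK5, was the most uniform kainate receptor gene. At chr7:25794943-25795002 it read 3.37, 3.38 and 3.21 in IF1-KO, 3.40 in CRL replicate 1 with a CRL mean of 3.22 ± 0.16 (SD), and 3.37, 3.06 and 3.30 in IF1-TG. The 9 arrays spanned 0.34 on the log2 scale. The differences were 0.023 for IF1-TG versus CRL (-0.28 to 0.33), -0.077 for IF1-TG versus IF1-KO (-0.38 to 0.23) and 0.10 for IF1-KO versus CRL (-0.21 to 0.41), and the intervals lay within 1.5-fold without the slide term. For each of the 9 genes, the arrays of genotypes with neighbouring means overlapped and no difference between them passed the test, although some means lay more than 1 SD apart, those of Grik4 and of the dimmer Gria3 probe among them.

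**Figure D2:**
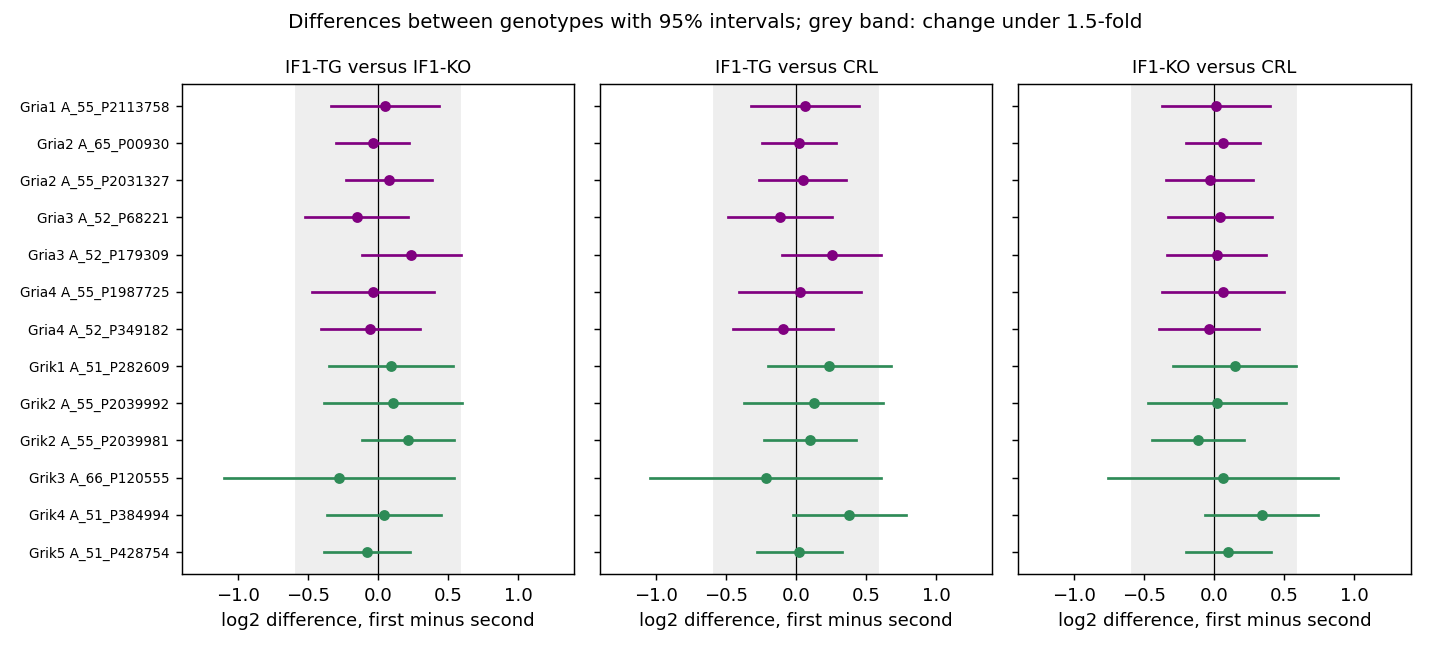
Log2 differences (x axis) of the 13 kept AMPA (purple) and kainate (green) receptor probes in the 3 comparisons, with 95% intervals from limma (3 mice in each genotype) and the range below a 1.5-fold change in grey. All 39 intervals include 0, 28 stay within the grey band, and Grik3 has the widest (0.82 to either side).

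Taking 1 value a gene from its brightest probe, the 4 AMPA receptor genes had a median difference of 0.023 for IF1-TG versus CRL, -0.038 for IF1-TG versus IF1-KO and 0.050 for IF1-KO versus CRL. With the dimmer Gria4 probe in place of the uncertain one they were -0.037, -0.047 and 0.027. For the 5 kainate receptor genes the medians were 0.12, 0.043 and 0.10. The median over all kept probes was 0.00067, 0.0070 and -0.0076. The median absolute difference of the 13 probes was 0.099, 0.079 and 0.059, beside 0.16, 0.16 and 0.12 over all kept probes.

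Transcripts of proteins that assemble, anchor or modify these receptors, of the other glutamate receptors and of glutamate transporters were examined in 8 lists of 79 genes, of which 76 were kept, and 6 genes (7.89%) were called on at least 1 probe in some comparison, beside 8.73% of the 21907 gene names kept on the array. The listed genes had 1.51 kept probes each and all gene names 1.28. None of the 14 auxiliary subunits of AMPA receptors, the transmembrane partners that set gating and trafficking, was called. The smallest P in that list was for Shisa9, with a difference of -0.41 between IF1-TG and CRL (SE 0.16, adjusted P = 0.547), under 1.5-fold. The 4 kainate receptor auxiliary subunits and ligands likewise gave no call. C1ql3, a secreted synaptic ligand, had the smallest P there (IF1-TG versus CRL -0.51, SE 0.23, adjusted P = 0.596), and the list's medians were -0.54 for IF1-TG versus CRL, -0.42 for IF1-TG versus IF1-KO and -0.092 for IF1-KO versus CRL. The 3 RNA-editing genes and the 6 glutamate transporters gave no call, with the smallest P for Adarb2 (0.44 for IF1-TG versus IF1-KO, SE 0.41, adjusted P = 0.803, on a probe well above background on 7 of the 9 arrays) and Slc1a3 (-0.24 for IF1-KO versus CRL, SE 0.14, adjusted P = 1.00).

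Of 17 kept genes of AMPA receptor biogenesis and trafficking, Frrs1l, an endoplasmic reticulum factor of AMPA receptor assembly, rose in IF1-TG versus CRL. Its called probe read -0.46, -0.57 and -0.25 in IF1-TG, above all CRL mice at -1.45, -0.95 and -1.32, a difference of 0.81 ± 0.16 (SE, adjusted P = 0.327). It was the dimmest of 3 Frrs1l probes, and the brighter ones gave 0.029 and 0.21 without a call. Of 16 kinases and phosphatases listed for receptor phosphorylation, Camk2b rose in IF1-TG versus CRL by 0.85 ± 0.22 (SE, adjusted P = 0.413) on its dimmer probe, while the brighter one gave 0.042. Fyn, a Src-family kinase, fell in IF1-TG versus IF1-KO, the difference being -0.83 on the log2 scale (SE 0.27, adjusted P = 0.660). With slide as a block, where IF1-TG is 1 mouse, the difference was -0.27, under 1.5-fold.

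The other glutamate receptor families held 3 called genes. Of 7 NMDA receptor genes, Grin2b rose in IF1-TG versus CRL by 1.06 ± 0.33 (SE, adjusted P = 0.501) on the dimmer of its 2 probes, and the brighter one gave 0.21. The first value was 0.68 without IF1-TG replicate 3 and 0.64 with probes averaged by gene, and stayed called in both. With slide as a fixed block it was 1.80, where IF1-TG rests on IF1-TG replicate 3 alone, the highest array (1.70). By qPCR and array, the study found no significant decrease of NMDA receptor subunit mRNA in IF1-TG, whereas the subunit proteins were strongly lower. Of 9 metabotropic and delta receptor genes, Grid1, for the delta receptor GluD1, fell in IF1-TG, with log2 differences of -0.79 versus CRL (SE 0.15, adjusted P = 0.327) and -0.72 versus IF1-KO (adjusted P = 0.581), with all 3 IF1-TG mice lower than the other 6. Without IF1-KO replicate 2 the latter fell just under the fold threshold and was not called. Grm5 rose in IF1-KO versus CRL by 0.75 ± 0.22 (SE, adjusted P = 1.00) on 1 of 3 probes, and the brightest gave 0.042. In each of these lists 1 gene was called per comparison at most, beside none for AMPA and kainate receptor genes, and the difference between the lists was not tested.

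**Figure D3:**
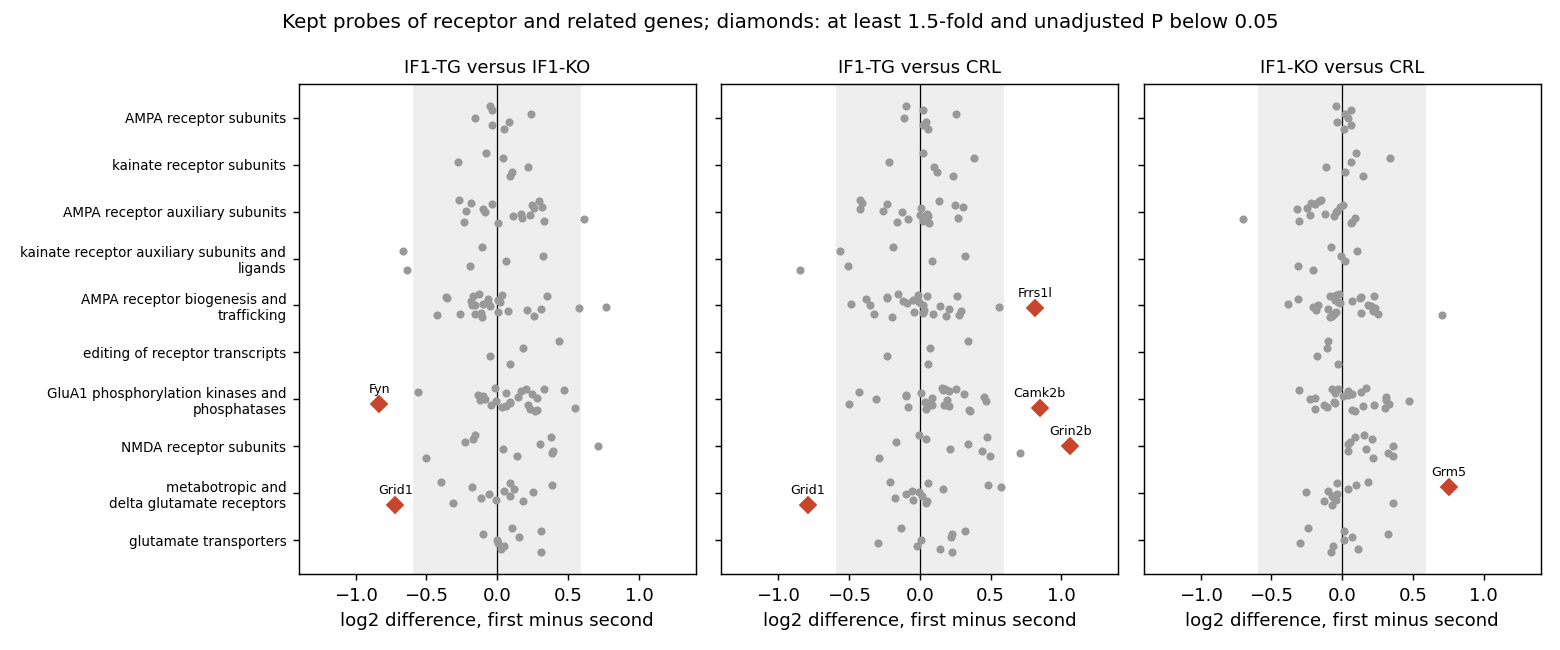
Log2 differences (x axis) of every kept probe in AMPA and kainate receptor lists and the 8 lists of related genes (rows) for the 3 comparisons, with called probes as red diamonds and the range below a 1.5-fold change in grey. The receptor subunit probes lie between -0.28 and 0.38, and the called genes are Fyn, Grid1, Frrs1l, Camk2b, Grin2b and Grm5.

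Marker genes of the cells and regions that such a dissection can hold were summed on the linear scale, relative to the 75th percentile. The 14 markers of hippocampal excitatory neurons were all well above background, summing to 79.5 to 84.9 in IF1-KO, 87.7 to 95.5 in CRL and 87.3 to 93.5 in IF1-TG. The IF1-KO sums thus lay below all others, and 4 of the 14 markers were higher in IF1-KO than in CRL (median difference -0.12). None was called (smallest P for Prox1, which was at -0.48 in IF1-KO versus CRL, SE 0.23). The 7 choroid plexus markers, 6 of them well above background on all arrays, varied widely within every genotype, from 2.16 to 97.2, 3.37 to 119 and 5.03 to 183, again without a call (smallest P for Clic6, which was at 1.10 in IF1-TG versus IF1-KO, SE 1.24). The 8 striatal markers summed to 13.1 to 14.4, 14.1 to 25.7 and 11.3 to 15.6, with called Adora2a at -1.16 in IF1-KO and -0.96 in IF1-TG versus CRL. CRL replicate 3 stood apart for Adora2a (-1.87, the other controls being at -3.35 and -3.61), and without it the differences were -0.62 and -0.42, the second no longer called. The IF1-KO call was lost without IF1-KO replicate 2 (-1.16) or 3 (-1.08). The 5 thalamic markers summed to 3.06 to 3.85, 3.55 to 4.12 and 3.49 to 5.86, with Tcf7l2 (1.11) and Lef1 (0.68) called in IF1-TG versus CRL, and Tcf7l2 (1.34) in IF1-TG versus IF1-KO, where the brighter Tcf7l2 probe gave 0.30 and 0.062 without a call. Without IF1-TG replicate 2, the highest array for Tcf7l2, its difference from CRL was 0.68 and not called. Interneuron markers (9 genes) summed to 177 to 192, 159 to 226 and 114 to 222, with Pvalb called at -0.65 in IF1-TG versus CRL on its dimmer probe, while the brighter one gave 0.090. The Pvalb arrays of these genotypes overlapped, and the difference was -0.40 and not called without IF1-TG replicate 2. With slide as a fixed block IF1-TG rests on IF1-TG replicate 3 alone. The IF1-TG differences were then -0.30 for Adora2a, 0.48 (versus CRL) and 0.52 (versus IF1-KO) for Tcf7l2, 0.20 for Lef1 and -0.31 for Pvalb, all under 1.5-fold. Astrocyte sums (8 genes) were 167 to 181, 162 to 187 and 183 to 226, with Aqp4 called at 0.79 in IF1-TG versus IF1-KO on its dimmer probe (0.40 on the brighter one). Oligodendrocyte lineage sums (12 genes) were 103 to 151, 140 to 177 and 151 to 183, and microglia sums (10 genes) were 50.7 to 60.9, 57.9 to 64.9 and 60.8 to 73.3, with no call in either (smallest P for Cnp, 0.49, and Trem2, 0.36, both in IF1-TG versus IF1-KO and under 1.5-fold). Their part in the receptor values was not tested.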

How the data were processed

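Hippocampal RNA of 9 mice was labelled with Cy3 and hybridised to Agilent 4x44K v2 arrays. The deposited scanner files hold fluorescence intensity for each spot, made by the authors with Feature Extraction 10.7.3.1, which subtracts background and detrends within an array but does not normalize between arrays; per the labels, limma was used afterwards (version not given). The authors' well-above-background and outlier flags were used as deposited. Here, log2 processed intensity was centred on the 75th percentile of each array, excluding controls and outlier-marked spots, with replicate spots combined by their mean. Probes well above background on all 3 arrays of a genotype were kept. The differences were fitted with limma 3.58.1 in R 4.3.3 over all 9 arrays with genotype as the factor, and adjusted by Benjamini-Hochberg over 27994 probes. The code was tested on simulated data. Groups follow the labels. The limma p-values use the spread within genotypes, pooled over all 9 arrays and moderated across the kept probes, with 3 mice in each genotype.

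The members, the gene lists and the tests were chosen with earlier results of these data known. Named were all 9 subunit genes, Atpif1, each gene of another list called in a comparison or otherwise the gene with the smallest P of that list, and the 3 genes most like the subunit with the smallest F-test P. All 9 subunit names matched RefSeq symbols. Alternatives changed background correction, normalization, the filter, the block, the variance model, the probe summary or the arrays used. Epb41l1 and Nptxr were not analysed here for want of a probe under that name, and Drd1 was analysed under its current symbol.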

Additional observations from a re-analysis of the deposited data

How the results depend on the processing

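The count of called subunit probes was 0 in all 3 comparisons under the 12 alternatives that keep all 9 arrays or the arrays of the 2 genotypes compared. When single arrays were left out, it ranged from 0 to 1 for IF1-TG versus CRL (likewise by the brightest probe of each gene) and was 0 in the other comparisons. The single call was Grik3 without CRL replicate 1. The number of subunit probes with an F-test P below 0.05 was 0, and 0 to 1 with single arrays left out (1 without IF1-TG replicate 2). Of 807 subunit differences recomputed under 21 settings, 9 had an unadjusted P below 0.05, 10 moved by at least the residual SD of their probe, and 71 changed sign, none of them a called value and all with a reported value of at most 0.22 in size. Under normexp with quantile normalization all called probes numbered 569, 575 and 163 (IF1-TG versus IF1-KO, IF1-TG versus CRL, IF1-KO versus CRL; 1056, 1251 and 298 as reported), without a filter 3187, 4670 and 734, with the filter on all 9 arrays 180 for IF1-KO versus CRL, and with slide as a fixed block 2245 for IF1-TG versus CRL. With single arrays left out they ranged from 634 to 1772, 1064 to 1974 and 203 to 1124. Genes called in the related lists numbered 2, 4 and 1; they were 4 under normexp and 4 under quantile normalization for IF1-TG versus IF1-KO, 6 and 13 with the slide block for IF1-TG versus IF1-KO and versus CRL, 2 and 0 with probes averaged by gene for IF1-TG and for IF1-KO, each against CRL, and 2 for IF1-KO versus CRL fitted on those genotypes alone. With single arrays left out they ranged from 1 to 9, 4 to 10 and 1 to 3. The cause of these changes was not tested, and the share of all gene names called on at least 1 probe was computed only for the reported fit. With the slide block the counts for IF1-TG rest on IF1-TG replicate 3 alone. With probes averaged by gene, Frrs1l (0.35), Camk2b (0.44) and Grm5 (0.30) lost their calls. Without IF1-TG replicate 1 the Fyn difference was -0.59 with the unadjusted P above 0.05, and without IF1-KO replicate 2 the Grid1 difference from IF1-KO was -0.58, just under the 1.5-fold threshold, and both calls were lost. Correlations of deviations were -0.165 to 0.116 for same-numbered arrays and -0.245 to 0.335 for differently numbered ones. Because these ranges overlap, they cannot tell whether the numbers pair the mice. With the replicate number as a block the called subunit probes stayed at 0 and all called probes numbered 1066, 1181 and 333. Among the subunit probes, signal over background limited the second Grik3 probe.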
